A study of Sus scrofa with 8 samples.

Results

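Translation initiation and elongation factors are the proteins that bring messenger RNA, initiator tRNA and ribosome together and then move the ribosome along the coding sequence. The genes described here are those whose symbol in the platform annotation starts with EIF or EEF followed by a number. There were 42 such genes among 6765 genes with a symbol on the array, read by 65 probe sets with exactly 1 symbol. A probe set is the group of short oligonucleotides that measures a transcript on an Affymetrix array, and each gene was read from its probe set of highest mean log2(signal + 32) that is no control. All 42 genes passed the filter on dim probe sets, and no array gave any of them a signal below 91.5, the 95th percentile of the negative controls.

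Skeletal muscle of Korean native pigs aged 7 months was compared with that of Yorkshire pigs aged 6 months. Total RNA came from the longissimus dorsi, the long back muscle, and was hybridised to 8 one-colour arrays, 4 per breed, called biological replicates in the labels. Age differed with breed, and the effects of age and breed cannot be told apart. The sex of the animals is not given in the labels used here. Rearing conditions were alike for both breeds, per the growth protocol in the labels.

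In the initiation pathway, eIF2 carries the initiator tRNA to the small ribosomal subunit, and its exchange factor eIF2B reloads it with GTP. Phosphorylation of the alpha subunit of eIF2 slows initiation in most messages. The many-subunit factor eIF3 is the scaffold on the small subunit, while the eIF4 proteins recognise the cap, unwind the leader and recruit eIF3. Elongation factor eEF1A delivers each aminoacyl-tRNA, and the eEF1B proteins recharge it. In muscle these steps set the rate of protein synthesis and respond to feeding, insulin and exercise.

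Each array had been scaled to a trimmed mean signal of 500.1 or 500.2, so a change is a change against the rest of that array. Median signals ran from 135.8 to 185.3. All 9 muscle fibre markers that could be read (among them CKM, MYH7, TNNT3 and TTN) were above the negative control limit on all 8 arrays. Their summed signal was 444860 to 677833 in the Korean native pigs and 591408 to 909937 in the Yorkshire pigs, and 8 of the 9 had a log2 change below 0. Of 6 leukocyte markers 1 was above the limit on all arrays, of 6 endothelial markers 4, of 5 fibroblast markers 5 and of 7 adipocyte markers 3. The summed signals of all 8 marker lists overlapped between breeds. Median log2 changes were -0.32 for muscle fibre, -0.53 for adipocyte (2 of 7 above 0), -0.38 for smooth muscle (0 of 3), -0.19 for fibroblast (0 of 5), 0.02 for endothelial (3 of 5 tested), 0.07 for red cell (2 of 3), 0.11 for leukocyte (3 of 3 tested) and 0.43 for nerve markers (1 of 2), and none of these markers passed the adjusted threshold by limma. The part of cell makeup in the values below was not tested. In bulk muscle, fewer cells of a type and less RNA per cell cannot be told apart.

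No translation factor gene passed the adjusted threshold for a breed difference. By limma 0 of 42 were called at an adjusted p under 0.05, where 0% of 5331 genes were called, and the smallest adjusted p among the 42 was 0.999. At an unadjusted p under 0.05 there were 2 genes, EIF4E and EIF4G2, both lower in Korean native pigs. They were 4.76% of the 42, against 3.43% of all genes tested, or 1.69% for the lower direction alone. The 4 values of a breed all lay above the 4 of the other for 3 genes, or 7.14%, against 2.25% of all genes tested. These were EIF3E, higher in Korean native pigs (1 of 42, where 1.14% of all genes did so), and EIF2S1 and EIF4G2, lower in them (2 of 42, or 4.76%, where 1.11% did so). Over the 42 genes the median log2 change, Korean native pig minus Yorkshire, was 0.03, beside -0.0027 over all genes tested. Above 0 were 23 of the 42 (54.8%), where 49.6% of all genes were.

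**Figure D1:**
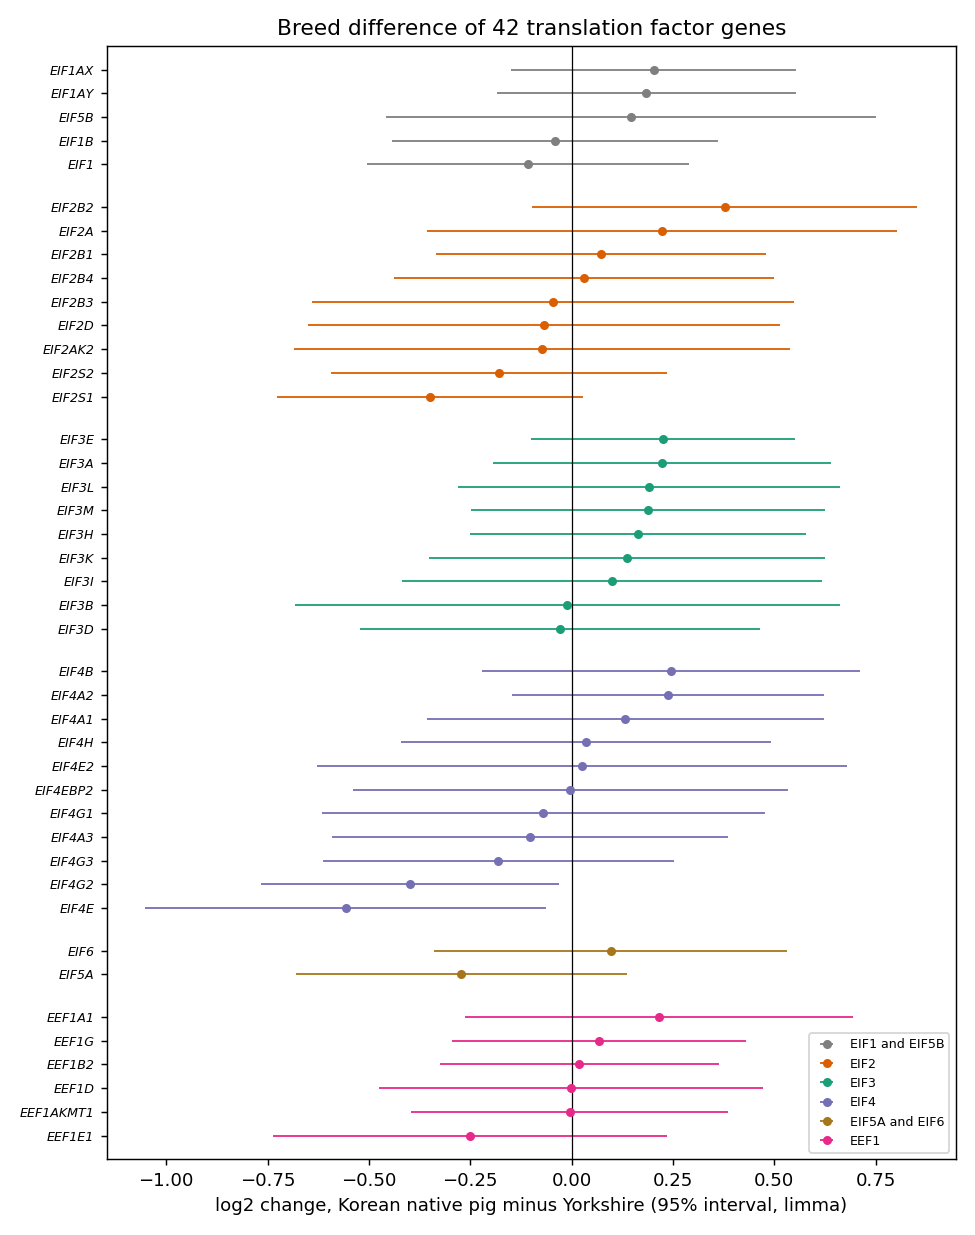
Log2 change between breeds (Korean native pig minus Yorkshire) of 42 translation factor genes, by factor group, as points with the 95% interval of the limma fit (4 arrays per breed). The intervals of EIF4E and EIF4G2 lie below 0 before adjustment, and those of the other genes include 0.

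The lowest log2 changes of the 42 were those of EIF4E and EIF4G2, both of the eIF4 group. EIF4E encodes the protein that binds the cap of the messenger RNA. Its signals were 544.4, 752.5, 517.1 and 458.2 in Korean native pigs 1 to 4 and 1077, 927.5, 659.4 and 742.6 in the Yorkshire pigs 1 to 4. Only Korean native pig 2 reached into the Yorkshire range, above Yorkshire 3 and 4. The means were 568.1 ± 128.1 and 851.7 ± 187.5 (SD, n = 4), a log2 change of -0.56 (SE 0.23, 95% interval -1.05 to -0.06; limma unadjusted p = 0.0304, adjusted p = 0.999). Leaving out single arrays kept the change between -0.69 and -0.44.

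EIF4G2 encodes a relative of the eIF4G scaffold that lacks the cap-binding protein's docking site and serves initiation without it. Its signals were 28957, 25821, 25830 and 20637 in the Korean native pigs and 35796, 29259, 32455 and 35447 in the Yorkshire pigs. Every Korean native pig lay below every Yorkshire pig, the nearest being Korean native pig 1 and Yorkshire 2. The means were 25311 ± 3448 and 33239 ± 3048 (SD, n = 4), with a log2 change of -0.40 (SE 0.17, 95% interval -0.77 to -0.03; limma unadjusted p = 0.0362, adjusted p = 0.999). With single arrays left out it ran from -0.47 (Korean native pig 1 left out) to -0.30 (Korean native pig 4 left out).

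The scaffolds EIF4G1 and EIF4G3, which bridge the cap-binding protein to eIF3, had log2 changes of -0.07 and -0.18. The second cap-binding gene EIF4E2 was at 0.03 and EIF4EBP2, a repressor that binds eIF4E, at -0.0032. Of 4 tested probe sets of EIF4EBP2, 3 were below 0 and 1 was at 0.17.

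Of the 3 EIF4A helicase genes, EIF4A1 and EIF4A2 were above 0 and EIF4A3 below, none passing. EIF4A2 encodes a helicase that unwinds the leader of the message. Its signals were 23505, 28237, 36496 and 27766 in the Korean native pigs and 25366, 24647, 21618 and 25691 in the Yorkshire pigs. Korean native pig 1 was within the Yorkshire range and the other Korean native pigs above it, with the highest value in Korean native pig 3. The log2 change was 0.24 (SE 0.18, 95% interval -0.15 to 0.62; limma adjusted p = 0.999). Leaving out Korean native pig 3 gave 0.12.

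Its near-identical paralog EIF4A1 had signals of 499.7, 860.9, 519.2 and 565.8 in the Korean native pigs and 528.8, 490.2, 495.8 and 668.5 in the Yorkshire pigs. The breeds overlapped, and Korean native pig 2 was the highest array. Its log2 change was 0.13 (SE 0.22, 95% interval -0.36 to 0.62; limma adjusted p = 0.999) and became -0.04 without Korean native pig 2. The helicase cofactors EIF4B and EIF4H had log2 changes of 0.25 and 0.04, and EIF4A3, a helicase of the exon junction complex, one of -0.10. A dimmer EIF4H probe set was at 0.82 (limma unadjusted p = 0.043), so the size of the change differed between the 2 probe sets of that gene. Both EIF4B probe sets were above 0, the second at 0.21. Over the 11 EIF4 genes the median was -0.0032, with 5 above 0 and 6 below, between -0.56 for EIF4E and 0.25 for EIF4B.

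**Figure D2:**
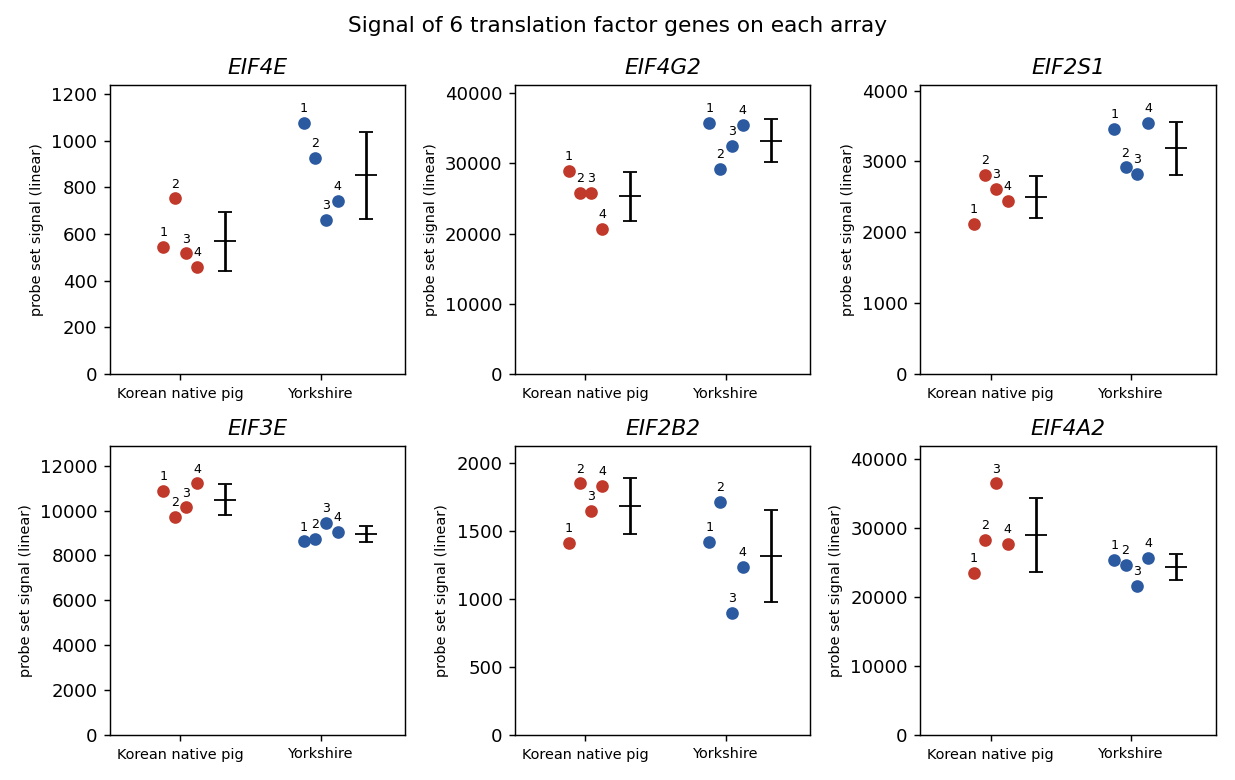
Linear probe set signal of EIF4E, EIF4G2, EIF2S1, EIF3E, EIF2B2 and EIF4A2 on each array, as points numbered by replicate, with the mean and SD of 4 arrays beside them. The breeds do not overlap for EIF4G2, EIF2S1 and EIF3E, and they overlap for the other 3 genes.

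Among the eIF2 genes, the alpha and beta subunits of the tRNA carrier were below 0 and 3 of 4 subunits of its exchange factor above 0, none passing. The difference between carrier and exchange factor was not tested. EIF2S1 encodes the alpha subunit, the one phosphorylated under stress. Its signals were 2113, 2809, 2607 and 2444 in the Korean native pigs and 3453, 2916, 2819 and 3547 in the Yorkshire pigs. The breeds did not overlap, but Korean native pig 2 and Yorkshire 3 were almost equal. The means were 2493 ± 294.5 and 3184 ± 369.3 (SD, n = 4), a log2 change of -0.35 (SE 0.17, 95% interval -0.73 to 0.03; limma unadjusted p = 0.0661, adjusted p = 0.999).

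EIF2S2, the beta subunit, had signals of 10147, 10187, 6559 and 7488 in the Korean native pigs and 10934, 8693, 9236 and 9515 in the Yorkshire pigs. Korean native pigs 3 and 4 were low and the other Korean native pigs lay within the Yorkshire range. This gave a log2 change of -0.18 (SE 0.19, 95% interval -0.59 to 0.24; limma adjusted p = 0.999). Leaving out Korean native pig 3 gave -0.06.

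EIF2B2 encodes the beta subunit of the exchange factor. Its signals were 1410, 1849, 1644 and 1833 in the Korean native pigs and 1418, 1711, 896.4 and 1236 in the Yorkshire pigs. The breeds overlapped, and Yorkshire 3 was the lowest array. Between breeds the log2 change was 0.38 (SE 0.22, 95% interval -0.10 to 0.85; limma unadjusted p = 0.108, adjusted p = 0.999), the highest of the 42, and 0.21 without Yorkshire 3.

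The other exchange factor subunits were nearer to 0, with EIF2B1 at 0.07, EIF2B4 at 0.03 and EIF2B3 at -0.05. Within the arrays of dim hybridisation controls (replicates 2 and 4 of both breeds) these 3 were at -0.18, -0.20 and -0.39. EIF2AK2 encodes the kinase PKR, which phosphorylates eIF2 in response to double-stranded RNA, and it was at -0.07. EIF2A and EIF2D, which can deliver initiator tRNA outside the eIF2 complex, were at 0.22 and -0.07, and a second EIF2A probe set was at 0.42. The median was -0.26 over the alpha and beta subunits of the carrier and 0.05 over the 4 subunits of the exchange factor. A further carrier subunit, EIF2S3, is listed beside another locus on probe sets at 0.39 and 0.59, and is not in this median. All 9 genes, grouped by symbol, had a median of -0.05, with 4 above 0 and 5 below. That median was 0.03 with arrays centred on their median, so it has no settled direction.

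The eIF3 genes had the highest median of the 4 complexes, as grouped by gene symbol, at 0.16 with 7 of 9 above 0. None was at an unadjusted p under 0.05 by limma. EIF3E, a subunit of the scaffold, had signals of 10890, 9701, 10139 and 11212 in the Korean native pigs and 8624, 8724, 9432 and 9037 in the Yorkshire pigs. All Korean native pigs lay above all Yorkshire pigs, with Korean native pig 2 close to Yorkshire 3. The means were 10485 ± 689.8 and 8954 ± 363.7 (SD, n = 4), a log2 change of 0.23 (SE 0.15, 95% interval -0.10 to 0.55; limma unadjusted p = 0.158, adjusted p = 0.999). It stayed between 0.19 and 0.26 as single arrays were left out.

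EIF3A, the largest subunit, had signals of 7152, 5185, 6617 and 6052 in the Korean native pigs and 6627, 5188, 5655 and 4108 in the Yorkshire pigs. The breeds overlapped, with Yorkshire 4 the lowest. Its log2 change was 0.22 (SE 0.19, 95% interval -0.19 to 0.64; limma adjusted p = 0.999), and 0.10 without Yorkshire 4.

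EIF3M, another subunit of the scaffold, had signals of 2958, 4329, 3614 and 4580 in the Korean native pigs and 3364, 3843, 2604 and 3713 in the Yorkshire pigs. The breeds overlapped, with Korean native pig 1 and Yorkshire 3 the lowest. The log2 change was 0.19 (SE 0.20, 95% interval -0.25 to 0.63; limma adjusted p = 0.999), and 0.07 without Yorkshire 3. A dimmer EIF3M probe set was at 0.83 (limma unadjusted p = 0.0356).

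The remaining eIF3 subunits were EIF3L at 0.19, EIF3H at 0.16, EIF3K at 0.14, EIF3I at 0.10, EIF3B at -0.01 and EIF3D at -0.03. The eIF3 median was 0.09 without Yorkshire 3 and 0.23 without Yorkshire 4, and it was above 0 under each of the 23 alternatives run. Some of these, such as those of the filter, trend and blocks, left the median as it was and could not change its sign. The difference in median between eIF3 and the other complexes was not tested.

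The median of a complex on each array shows the arrays behind these values. Each gene was centred on its mean over the 8 arrays, and the median over the complex was then taken per array. For eIF3 it was 0.10, 0.20, 0.05 and 0.08 log2 units in Korean native pigs 1 to 4 and -0.17, -0.05, -0.31 and 0.13 in the Yorkshire pigs 1 to 4. The Korean native pig values were all above 0 and within 0.05 to 0.20, while the Yorkshire values were spread, with Yorkshire 3 low and Yorkshire 4 above 3 of the Korean native pigs. For eIF4 the lowest arrays were Yorkshire 3 at -0.19 and Korean native pig 1 at -0.18, and the highest was Yorkshire 4 at 0.22. For eIF2 the values ran from -0.07 in Yorkshire 3 to 0.22 in Yorkshire 2, and for eEF1 from -0.12 in Yorkshire 1 to 0.20 in Yorkshire 4. Over all genes tested the medians per array ran from -0.04 to 0.07.

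**Figure D3:**
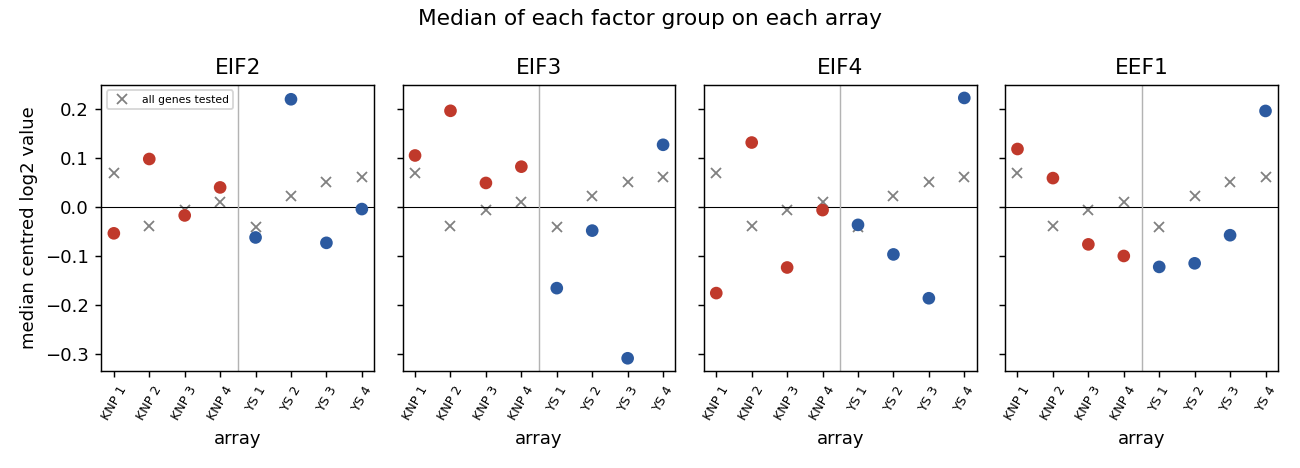
Median centred log2 value of the EIF2 (9 genes), EIF3 (9), EIF4 (11) and EEF1 (6) genes on each array (red, Korean native pig, KNP; blue, Yorkshire, YS), with the median of all 5331 genes tested as grey crosses. EIF3 was above 0 on all Korean native pig arrays, and Yorkshire 4 was high for EIF3, EIF4 and EEF1.

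The spread between arrays differed among the genes of the eEF1 group, which was formed by symbol and holds more than elongation factors. The highest signal over the lowest across the 8 arrays had a median ratio of 1.58 for the 6 eEF1 genes, 1.76 for eIF3, 1.95 for eIF4 and 2.01 for eIF2, and the differences between complexes were not tested. Among the eEF1 genes it was 1.24 for EEF1B2, 1.35 for EEF1AKMT1 and 1.38 for EEF1G, and 1.77 for EEF1A1, 1.91 for EEF1D and 1.94 for EEF1E1. Over all genes tested it was 2.19, and over the 42 genes 1.76, from 1.24 for EEF1B2 to 2.71 for EIF3B. The probe sets of the 42 genes were also brighter, with a median signal of 2932 against 585.9 over all genes tested, and the part of brightness in the smaller spread was not tested.

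EEF1B2, which encodes a nucleotide exchange subunit of eEF1B, had signals of 37686, 35451, 32549 and 32632 in the Korean native pigs and 32074, 31711, 33521 and 39440 in the Yorkshire pigs, a log2 change of 0.02 (95% interval -0.33 to 0.36). The breeds overlapped. EEF1G, the scaffold subunit of eEF1B, had signals of 30418, 30336, 31194 and 26716 in the Korean native pigs and 26671, 30369, 23854 and 32974 in the Yorkshire pigs. Its log2 change was 0.07 (SE 0.17, 95% interval -0.29 to 0.43; limma adjusted p = 0.999), and it became -0.01 without Yorkshire 3. EEF1D, the delta subunit, was at -0.00053, with Yorkshire 4 at 26217 and the other 7 arrays between 13702 and 18876.

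EEF1E1 encodes a protein of the tRNA synthetase complex that is related to the eEF1B subunits. Its signals were 480.4, 702.5, 691.2 and 518.8 in the Korean native pigs and 679.8, 721, 931.3 and 549.6 in the Yorkshire pigs. The breeds overlapped, with Yorkshire 3 the highest. Its log2 change was -0.25 (SE 0.22, 95% interval -0.74 to 0.24; limma adjusted p = 0.999), and -0.12 without Yorkshire 3. A second probe set was at 0.14. EEF1AKMT1, a methyltransferase of eEF1A, was at -0.0050.

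EEF1A1, the gene of the elongation factor that carries aminoacyl-tRNA, was read by 3 probe sets that are no controls and 1 control probe set. The probe set tested had signals of 973.4, 752.8, 701.1 and 898.4 in the Korean native pigs and 631.3, 555, 718.1 and 981.4 in the Yorkshire pigs. The breeds overlapped, with Yorkshire 4 the highest and Yorkshire 2 the lowest. This gave a log2 change of 0.22 (SE 0.22, 95% interval -0.26 to 0.69; limma adjusted p = 0.999), and 0.11 without Yorkshire 2 and 0.37 without Yorkshire 4. The name of this probe set marks it as shared by several transcripts, so related sequences may add to its signal. The brighter control probe set lies in the middle of the transcript and was left out of the tests as a control. It had signals of 13840, 28210, 16038 and 22676 in the Korean native pigs and 16231, 26822, 14428 and 17418 in the Yorkshire pigs, a log2 change of 0.09. A dimmer probe set was at 0.51 and the dimmest, which did not pass the filter, at -0.42. Over the 6 eEF1 genes the median was 0.0094, with 3 above 0 and 3 below.

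Elongation factor 1A also serves on this array as a measure of RNA integrity, through control probe sets at both ends of the transcript. The signal at the 3' end exceeded that at the 5' end by 3.94, 0.72, 1.24 and 1.06 log2 units in the Korean native pigs and 1.69, 0.68, 3.29 and 1.73 in the Yorkshire pigs. Korean native pig 1 and Yorkshire 3 were high, and the breeds overlapped. The means were 1.74 ± 1.48 and 1.85 ± 1.08 (SD, n = 4; exact permutation test over 70 labellings, two-sided p = 0.914, adjusted p = 1 over 5 array measures). The smallest p this design allows is 0.0286. At the 5' end the signals of these 2 arrays were 1989 and 3023, and those of the other 6 arrays were 7309 to 19554.

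**Figure D4:**
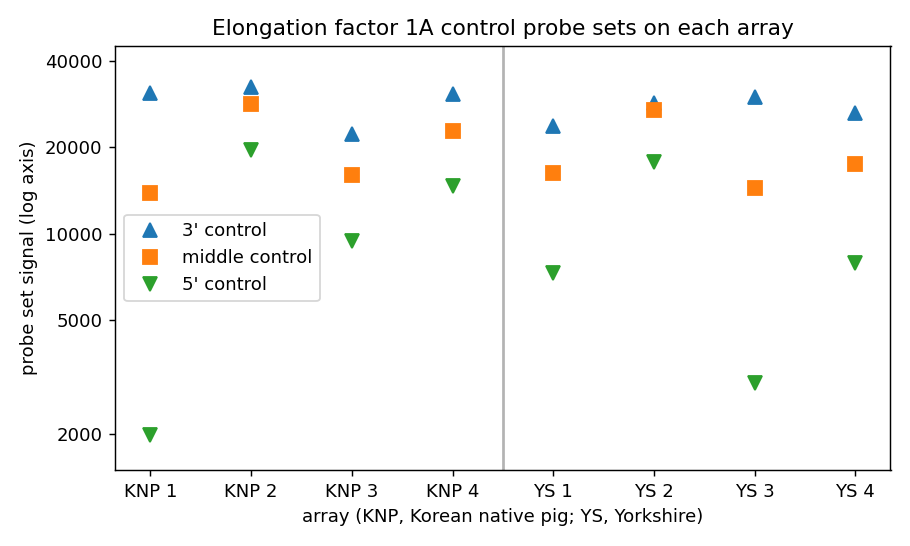
Signal (log axis) of the 3', middle and 5' control probe sets of elongation factor 1A on each array (KNP, Korean native pig; YS, Yorkshire). The 5' signal is lowest in Korean native pig 1 (1989) and Yorkshire 3 (3023), 1 array of each breed.

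The same 2 arrays were the lowest for some members. For 7 of the 42 genes (16.7%) Korean native pig 1 and Yorkshire 3 held the 2 lowest values, where 5.51% of all genes tested did so. These were EIF2A, EIF3B, EIF3M, EIF4A2, EIF4B, EIF4G1 and EIF4H. EIF2A, for example, had signals of 3193 and 2833 on these arrays and 4044 to 6627 on the other 6. EIF5B and EEF1AKMT1 had their 2 highest values there (4.76% of the 42, where 7.30% of all genes did). Without both arrays the log2 changes were -0.66 for EIF4E, -0.48 for EIF4G2, -0.33 for EIF2S1, 0.23 for EIF3E and 0.29 for EIF2B2. The 7 genes lowest on these arrays kept their sign, from -0.12 for EIF4G1 to 0.28 for EIF4A2. Some other genes shifted, among them EEF1E1 from -0.25 to -0.03 and EIF2B3 from -0.05 to -0.29. EIF3K changed sign, from 0.14 to -0.03, and so did EIF2D, from -0.07 to 0.24. The median over the 42 genes, 0.03 on all arrays, turned slightly negative. Yorkshire 3 was the lowest array for 16 of the 42 genes (38.1%, against 14.3% of all genes tested) and Yorkshire 4 the highest for 14 (33.3%, against 19.6%).

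**Figure D5:**
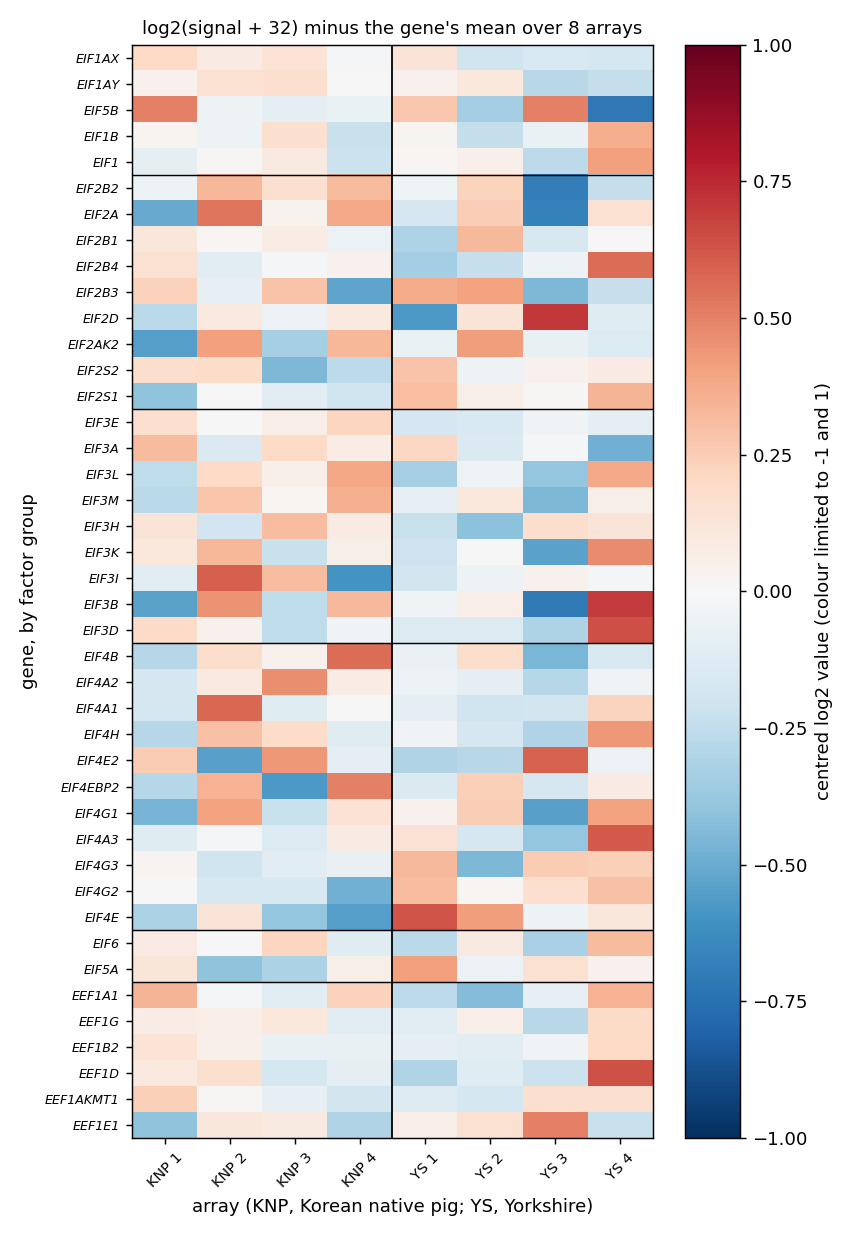
Log2(signal + 32) of each gene minus its mean over the 8 arrays (red, above the mean; blue, below; KNP, Korean native pig; YS, Yorkshire), by factor group. Yorkshire 3 is the lowest array for 16 of the 42 genes and Yorkshire 4 the highest for 14.

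Arrays also fell into bright and dim by their hybridisation controls, which are added after labelling. Replicates 1 and 3 of both breeds were bright, at 13.42 to 13.70 log2 units, and replicates 2 and 4 dim, at 12.50 to 12.81. Within the bright and the dim arrays, 2 per breed each, EIF4E was at -0.64 and -0.48, EIF4G2 at -0.32 and -0.48, EIF2S1 at -0.41 and -0.29, EIF3E at 0.22 and 0.23, and EIF2B2 at 0.42 and 0.33. These 5 genes kept their sign in both. For EIF4G2, EIF2S1 and EIF3E, which had no overlap between breeds, no choice of arrays could change it. EIF4E and EIF2B2 had been picked by smallest p on the same arrays. EEF1G was at 0.29 and -0.15 and EIF6 at 0.45 and -0.26, so the sign of these changes differed between bright and dim arrays. The median of the eIF2 genes was 0.19 and -0.06, that of eIF3 0.19 and 0.09, that of eIF4 -0.01 and -0.05, and that of eEF1 0.16 and -0.07.

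The start site factors and the late factors did not pass either. EIF1AX encodes the X-linked eIF1A, which opens the small subunit for scanning. Its signals were 4461, 4110, 4267 and 3825 in the Korean native pigs and 4245, 3364, 3475 and 3425 in the Yorkshire pigs. Yorkshire 1 lay within the Korean native pig range and the other Yorkshire pigs below it. Between breeds the log2 change was 0.20 (SE 0.16, 95% interval -0.15 to 0.55; limma adjusted p = 0.999), and a second probe set was at 0.23. The probe set annotated to its Y-linked copy EIF1AY had signals of 2396 to 2680 in the Korean native pigs. In the Yorkshire pigs they were 1958 to 2563. No array was near the negative controls, and the log2 change was 0.18. Whether transcripts of EIF1AX add to this signal was not tested, so the values do not tell the sex of the animals. EIF1 and EIF1B, which guard the choice of start codon, were at -0.11 and -0.04, and EIF5B, which joins the ribosomal subunits, at 0.15. Dimmer EIF5B probe sets were of the other sign, at -0.04 and -0.32.

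EIF5A encodes the factor that carries hypusine and helps the ribosome through difficult stretches. Its signals were 5618, 3908, 4140 and 5388 in the Korean native pigs and 6878, 4975, 5740 and 5322 in the Yorkshire pigs. Korean native pigs 2 and 3 lay below all Yorkshire pigs, and the others within their range. The log2 change was -0.27 (SE 0.19, 95% interval -0.68 to 0.14; limma adjusted p = 0.999). A dimmer probe set was at 0.07, with signals from 33.3 to 830.8. EIF6, which keeps the large ribosomal subunit from joining too early, was at 0.10.

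Where a gene had several probe sets they did not always share a sign. Of the 19 further tested probe sets of these genes, 12 had the sign of the probe set used. A further 6 probe sets carried a symbol of the family beside that of another locus, so they name no gene and were not counted among the members. Their log2 changes ran from -0.26 to 0.59. The highest 2, at 0.39 and 0.59, list a subunit of the eIF2 carrier among their symbols, and are thus of the opposite sign to the alpha and beta subunits. The one at 0.59 had no overlap between breeds (limma unadjusted p = 0.00753, adjusted p = 0.999), a smaller unadjusted p than that of any of the 42 genes.

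Other genes of the translation pathway were read from fixed lists, and none passed the adjusted threshold or was at an unadjusted p under 0.05 by limma. Of the poly(A) binding group, which closes the message into a loop, 3 genes were tested, 2 above 0 and 1 below, with PABPC4 at 0.19 and PAIP1 at 0.12. Of 16 genes listed for mTORC1 control, the nutrient-sensing kinase pathway upstream of eIF4E, 6 were above 0 and 10 below (median -0.04). Among the 10 were RPS6 and MKNK1, which do not control mTORC1, at -0.0052 and -0.01. The stress-induced inhibitor SESN1 was at 0.55 (SE 0.25), with signals of 5622 ± 2444 and 3596 ± 182.7 (SD, n = 4), and RRAGC, a GTPase of the same pathway, at -0.27.

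Of 9 genes of the integrated stress response, which follows phosphorylation of eIF2, 2 were above 0 and 7 below, with a median of -0.08. ASNS, which makes asparagine, was at 0.98 (SE 0.50), and PPP1R15A, which directs the phosphatase that restores eIF2, at -1.02 (SE 0.63). The ASNS signals were widely spread, at 5537 ± 4621 in the Korean native pigs and 2598 ± 1790 in the Yorkshire pigs (SD, n = 4). PPP1R15A was dim, with signals of 140 ± 135.3 in the Korean native pigs and 290.2 ± 191.9 in the Yorkshire pigs (SD, n = 4). Of 6 mitochondrial translation factors 4 were above 0 and 2 below, with GFM1 and MTRF1L both at 0.29. Of 17 genes of cytosolic tRNA synthetases and their partners, 6 were above 0 and 11 below, with the lysine enzyme KARS at 0.37 (SE 0.18) and the scaffold AIMP2 at -0.48 (SE 0.29). No gene of the list of termination and recycling factors was tested here.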

How the data were processed

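The authors deposited a linear intensity for each of 24123 probe sets on each of 8 arrays. The submitters' processing notes name GCOS 1.3. How probes were summarised, and to what target arrays were scaled, is stated in none of the sources used here. Detection calls were not used, and 0 columns of the table belonged to no array. Gene symbols came from GEO's platform annotation, which can be old. Of the 42 genes 41 were found by gene number in the Sscrofa11.1 gene table, with the same symbol. No positions are printed, since no source used here names the build behind the array.

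Values were transformed to log2(signal + 32), so the change of dim probe sets is understated. The 124 control probe sets and the 40% of the others with the lowest mean were left out, which left 14399 probe sets (5331 genes). The model was limma (version 3.58.1, under R 4.3.3) with lmFit and eBayes, an intensity trend and no covariates. P-values were adjusted by Benjamini-Hochberg over all 14399, at a threshold of 0.05. The fit was tested on simulated data with independent noise. The changes added there were larger than that of any of the 42 genes, so changes of their size were not covered. Precision was limited by the number of arrays, with a median standard error on the log2 scale of 0.214 over the 42 genes and 0.283 over all probe sets tested.

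The rule for full values took, from each of the EIF2, EIF3, EIF4 and EEF1 groups, the 3 genes of smallest p, and 1 from each other group. It added genes without overlap between breeds and a few fixed names (of these EEF1A2, EEF2 and EIF4EBP1 are not analysed here). All other members are given by their log2 change, and from each further list the 2 genes of smallest p. EEF1B2, EEF1D and EIF1AY were given by array values outside the rule, after their values were seen. The members and lists were chosen with earlier results of these data known. Alternatives changed the pseudocount, filter, scaling, trend, blocks, weights, probe sets and arrays.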

Additional observations from a re-analysis of the deposited data

Results flagged for a closer look

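In 4 of the 84 groups of 4 arrays looked at (42 genes in 2 breeds), a single array stood apart from the other 3 of its breed. Chance gives about 1 in 20 such groups, so 4 of 84 is near what chance gives. EIF1AX was at 4245 in Yorkshire 1 and at 3364 to 3475 in the other Yorkshire pigs. EIF2AK2, the gene of the kinase PKR, was at 363 in Yorkshire 2 and at 236.3 to 250.6 in the others. EIF4G3, a scaffold of the cap-binding complex, was at 3233 in Yorkshire 2 and at 5210 to 5546 in the others. EIF5B, the subunit joining factor, was at 1287 in Korean native pig 1 and at 844 to 865.3 in the other Korean native pigs.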

How the results depend on the processing

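Under 22 alternatives, 0 of the 42 genes passed the adjusted threshold, and the smallest adjusted p of any of them was 0.807. Of the 15 genes given with full statistics, 13 kept their sign under each alternative. Alternatives of the filter, trend and blocks could not change a sign, and most of these genes had been picked by smallest p on the same arrays. EIF4A1 was at -0.0072 within the bright arrays and, as single arrays were left out, from -0.036 (without Korean native pig 2) to 0.23. EEF1G was at -0.15 within the dim arrays, -0.026 without the 2 arrays of highest 3' to 5' ratio, and from -0.013 (without Yorkshire 3) to 0.14 (without Yorkshire 4) as single arrays were left out. The count of translation factor genes at an unadjusted p under 0.05, 2 in the report, was 1 without a filter, 1 without the intensity trend, 0 with arrays centred on their median, 0 within the bright and also 0 within the dim arrays. It was 0 to 2 as single arrays were left out, with 0 without Korean native pig 3, Korean native pig 4 or Yorkshire 1, and 1 without Korean native pig 1, Korean native pig 2, Yorkshire 3 or Yorkshire 4. It was 3 with quantile normalisation or array weights, which added EIF2S1. The eIF2 median moved to 0.19 and the eEF1 median to 0.16 within the bright arrays. As single arrays were left out, the medians ran from -0.12 to 0.05 for eIF2, 0.09 to 0.23 for eIF3, -0.13 to 0.07 for eIF4 and -0.03 to 0.12 for eEF1. Over all probe sets, 570 of the 14399 tested were at an unadjusted p under 0.05. Without a filter the count was 1074, but the dimmest 40% were then tested too, so these counts have different denominators. EEF1A1 read from its control probe set, an alternative chosen after seeing the data, was at 0.09. The cause of these shifts was not tested.

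With the replicate number as a block, 1 of the 14399 probe sets passed, which was of no translation factor gene, and 1 translation factor gene (EIF4E) was at an unadjusted p under 0.05. The labels do not say that numbers pair arrays. Deviations of same-numbered arrays correlated at -0.04, 0.31, 0.10 and 0.05 across probe sets. Korean native pigs 2, 3 and 4 correlated best with the Yorkshire array of their own number, and Korean native pig 1 with Yorkshire 3. Hybridisation controls also split by number, with replicates 1 and 3 of both breeds bright. Pairing was not assumed in the main fit, and shared handling by number was not tested. The 95% interval of a log2 change reached 0.467 to each side by median over the 42 genes (0.326 to 0.672), against 0.617 over all probe sets tested, which limits the size of change that could be detected.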
